A study of Homo sapiens with 4 samples.

Results

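The genes of fatty acid and triglyceride synthesis, storage and oxidation were examined in U87MG cells in which CASP2, the gene of the protease caspase-2, had been silenced. The list held 38 genes named for their place in the pathway, and a gene was measured where an array probe set (several short probes that are read together as 1 value) carried that gene as its single symbol in the platform annotation. By this rule 34 of the 38 genes were measured, each by 1 probe set, among the 19158 probe sets with 1 symbol and the 32321 probe sets of the array. AGPAT1 and FABP5 had only probe sets shared with other symbols, ACSL3 and AGPAT3 had none in the annotation used here, and these 4 genes were not analysed here.

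The study asked which transcripts respond when caspase-2 is depleted from glioblastoma cells. U87MG, an established human glioblastoma line, was cultured in serum-containing medium, and its total RNA was hybridized to Affymetrix whole-transcript arrays. There were 2 CASP2 siRNA arrays and 2 control siRNA arrays, called biological replicates in the sample labels. Both groups were the same line, and both were transfected with an siRNA, so no array held untransfected cells. The labels and methods do not say whether the replicates were separate cultures transfected on separate days, so every interval and p below measures only the spread between these 4 arrays.

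Fatty acid synthesis starts from cytosolic acetyl-CoA, which is carboxylated to malonyl-CoA, elongated to palmitate by fatty acid synthase and desaturated by stearoyl-CoA desaturase. Acyl-CoA synthetases activate fatty acids, and the acyl-CoA is then either esterified stepwise to glycerol, giving triglyceride that is kept in lipid droplets, or carried into mitochondria through the carnitine shuttle and oxidized. Much of the synthetic arm is transcribed under sterol regulatory element binding proteins (SREBPs), much of the oxidative arm under the peroxisome proliferator-activated receptors, and glioblastoma cells are known both for active lipogenesis and for lipid droplets.

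The promoters of 3 genes are shown first, because their transcripts had the lowest CASP2 siRNA values relative to control siRNA among the members whose groups of arrays did not overlap: ACLY and SCD of the synthetic arm and GPAM of triglyceride assembly. They are followed by HADHB, a gene of mitochondrial oxidation that starts 307 bases from its partner subunit HADHA, on the opposite strand of chromosome 2. Each sequence is the RefSeq window on GRCh38.p14 that reaches 250 bases before to 50 bases after an annotated start, read 5′ to 3′ along the gene's strand. Capitals mark the CCAAT box (CCAAT or ATTGG) and the GC box (GGGCGG or CCGCCC), the binding words of NF-Y and Sp1, both known partners of SREBPs. ACLY, chr17:41918902-41919201, minus strand, is one of its 2 windows in the table. SCD is chr10:100346983-100347282, plus strand, GPAM is chr10:112183716-112184015, minus strand, and HADHB is chr2:26244689-26244988, plus strand.
ACLY: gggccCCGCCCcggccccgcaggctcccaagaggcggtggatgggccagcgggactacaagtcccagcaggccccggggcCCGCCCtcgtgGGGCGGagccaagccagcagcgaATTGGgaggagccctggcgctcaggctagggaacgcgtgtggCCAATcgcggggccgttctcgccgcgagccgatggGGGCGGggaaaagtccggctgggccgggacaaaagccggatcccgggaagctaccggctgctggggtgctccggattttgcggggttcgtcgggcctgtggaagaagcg
SCD: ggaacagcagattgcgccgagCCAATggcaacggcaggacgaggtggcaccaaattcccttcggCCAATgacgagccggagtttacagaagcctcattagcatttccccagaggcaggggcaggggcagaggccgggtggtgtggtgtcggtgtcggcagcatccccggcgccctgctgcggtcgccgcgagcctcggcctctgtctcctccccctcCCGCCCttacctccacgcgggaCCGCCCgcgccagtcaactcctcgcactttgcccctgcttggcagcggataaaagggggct
GPAM: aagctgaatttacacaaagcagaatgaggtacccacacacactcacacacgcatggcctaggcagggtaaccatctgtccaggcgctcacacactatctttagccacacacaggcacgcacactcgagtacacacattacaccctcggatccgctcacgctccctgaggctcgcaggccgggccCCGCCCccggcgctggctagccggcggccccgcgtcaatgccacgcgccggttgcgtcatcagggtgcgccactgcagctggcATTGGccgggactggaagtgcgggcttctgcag
HADHB: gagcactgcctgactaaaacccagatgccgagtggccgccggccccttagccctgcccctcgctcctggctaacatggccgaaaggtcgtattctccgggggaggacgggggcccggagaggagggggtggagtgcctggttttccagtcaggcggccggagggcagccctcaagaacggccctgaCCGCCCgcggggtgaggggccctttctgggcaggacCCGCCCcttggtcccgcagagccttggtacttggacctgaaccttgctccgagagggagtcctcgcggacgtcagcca

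The ACLY window held 2 CCAAT and 4 GC boxes, the SCD window 2 and 2, the GPAM window 1 and 1, and the HADHB window no CCAAT box and 2 GC boxes. The sterol element core TCACNCCAC and the E-box CACGTG were searched on both strands as well, and neither was found in these 4 windows, which says only that the letters are not there. No marked word overlapped another in them. Of the 38 listed genes 32 had at least 1 window, 69 windows in all. The CCAAT box was in 29.0% of the 69 windows and in 34.6% of all 35116 promoter windows, the GC box in 55.1% and 45.0%, the E-box in 4.35% and 7.26%, and the sterol element core in 2.9% and 1.13%. The sterol core was found in a window of ACSL1 and of ACSL6, and the E-box in windows of LPIN2, PLIN2 and PPARGC1A.

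The silencing itself was read from the CASP2 probe set. CASP2 gave log2 values of 8.79 and 8.52 on the CASP2 siRNA arrays, against 10.74 and 10.69 on the control siRNA arrays. The difference was -2.06 on the log2 scale (95% limma interval -2.40 to -1.72), a fold of 0.240. In bulk RNA such as this, fewer cells with a transcript and less of it in each cell cannot be told apart. With limma's test and Benjamini-Hochberg adjustment over 32321 probe sets its adjusted p was 0.9999 (2 arrays a group), the unadjusted p being 4.0e-05, and no probe set of the table passed an adjusted p of 0.05 (0% of those tested). At the study's cut-offs (fold over 1.5, unadjusted p under 0.05), but with limma's p, 107 probe sets were higher (0.331%) and 117 lower (0.362%) in silenced cells. Of the 19158 probe sets with 1 symbol 19 were higher and 26 lower in this fit. With the test of the study's methods, which assumes a minimum standard deviation, 35 of all probe sets were higher and 37 lower. The paper reported fewer in each direction, but it counted genes, whereas these are probe sets, including those with no symbol or several. With only 2 arrays on each side, exact permutation of the labels gives a two-sided p of 0.333 at the smallest.

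The CASP2 siRNA arrays differed from each other more than the control siRNA arrays did. Across probe sets the standard deviation of the difference was 0.348 between the CASP2 siRNA arrays, 0.205 between the control siRNA arrays and 0.238 to 0.290 between an array of each group. CASP2 siRNA replicate 2 lay farther from both controls than replicate 1. Vimentin (VIM) and CD44, abundant in U87MG, lay above the upper quartile of the control arrays, and of the other 7 astroglial and glioma markers SLC1A3, GFAP and NES lay between the median and that quartile, ALDH1L1 and SLC1A2 between the lower quartile and the median, and S100B and AQP4 below the lower quartile. Adipocytes and hepatocytes are the cell types in which this pathway is best known. None of the 8 adipocyte and none of the 7 hepatocyte probe sets lay above the upper quartile. Between the median and that quartile, the class of GFAP and NES, lay 4 adipocyte and 2 hepatocyte probe sets. Of the 8 immune and microglial probe sets 1, CD68, lay above the upper quartile and none in the class below it. None of the 6 endothelial and 8 neuronal probe sets lay above it, and 1 and 2 of them lay in the class below. The level classes of the marker lists therefore overlapped.

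Many members lay high on the control arrays. In control siRNA arrays 18 of the 34 members lay above the upper quartile of all probe sets (8.67), 11 between the median (6.203) and that quartile, 3 between the lower quartile (4.40) and the median, and 2 below it. Among all probe sets with 1 symbol 5934 of 19158 lay above the upper quartile. By role, 5 of 8 synthesis genes, 2 of 4 activation genes, 4 of 8 triglyceride assembly genes, 1 of 2 droplet coat genes, 5 of 6 oxidation genes, none of the 2 uptake and binding genes and 1 of 4 regulators were in the top class. ME1, a cytosolic malic enzyme that makes NADPH, and CD36, a fatty acid transporter, were the 2 members below the lower quartile. Probe sets differ in affinity, so these classes place each gene among all probe sets and do not rank the abundance of its transcript against that of another.

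**Figure D1:**
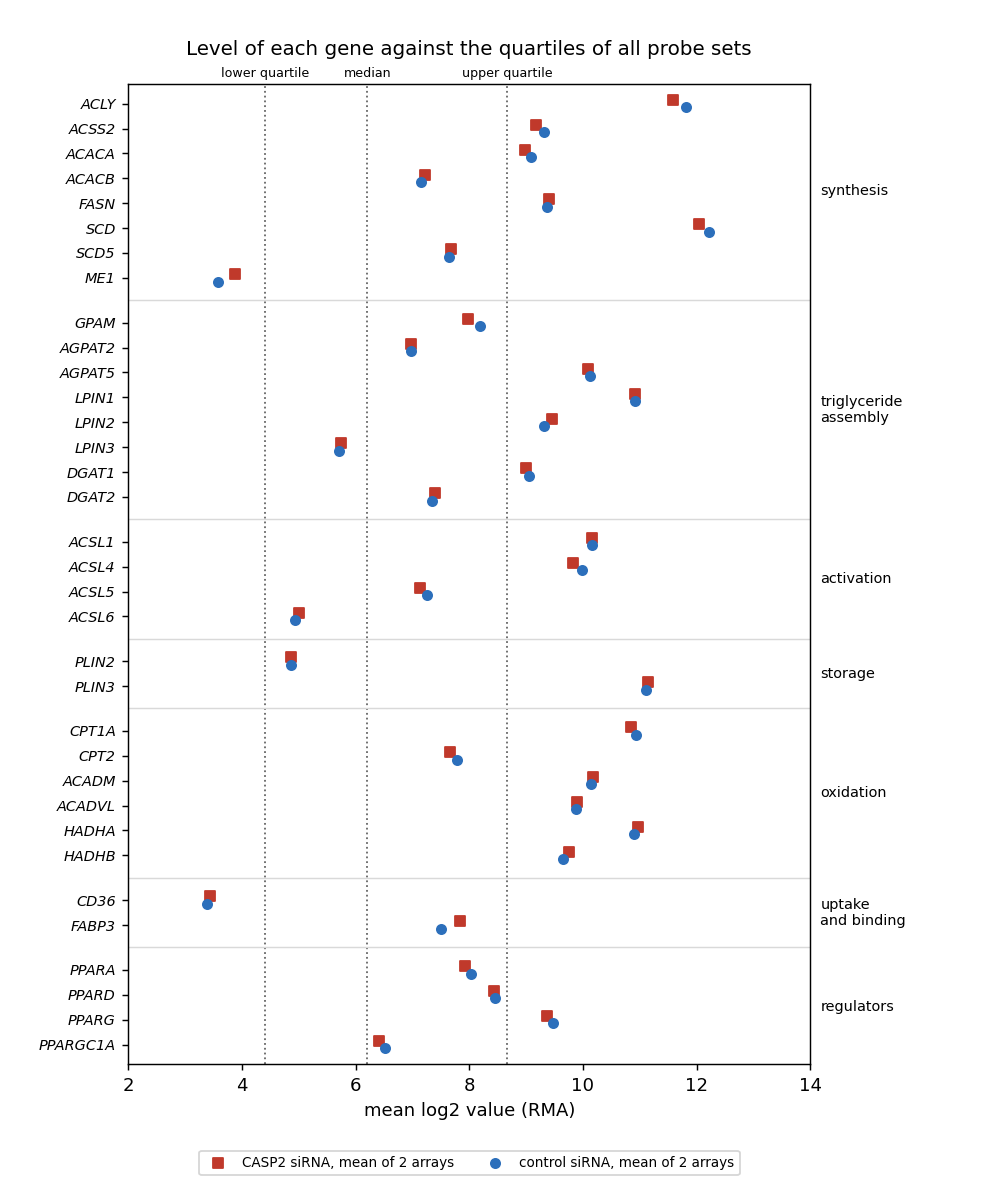
Mean log2 RMA value of each of the 34 members (x axis) in CASP2 siRNA cells (squares) and control siRNA cells (circles), 2 arrays each, by role down the y axis, with dotted lines at the quartiles of all 32321 probe sets in control arrays (4.40, 6.203 and 8.67). The squares and circles of a gene lie within 0.34 of each other, and 18 circles are right of the upper quartile.

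None of the 34 members passed the thresholds of the study or an adjusted p of 0.05 by limma, and none reached an unadjusted p of 0.05, where the 95% interval of the difference excludes 0 (3.03% of all probe sets did). The members' adjusted p values were all 0.9999 or higher. Between silenced and control cells 18 members had a difference above 0 and 16 below 0, with a median of 0.0056 that became -0.014 when arrays were centred on their medians. The median over all probe sets was 0.0022. The differences ran between -0.22 and 0.34, and 22 of them were under 0.1 in size. For 30 of the 34 members (88.2%) the whole 95% interval lay within 1.5 fold in either direction, as for 75.7% of all probe sets and 82.8% of those with 1 symbol. The number was 12 without control siRNA replicate 1 and 16 without control siRNA replicate 2, fits in which the spread rests on the CASP2 siRNA arrays. The 4 members whose intervals reached beyond 1.5 fold were ME1, LPIN3, FABP3 and PPARGC1A.

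Both CASP2 siRNA arrays lay above both control siRNA arrays for 7 members and below them for 8. Of all probe sets 14.5% lay above and 15.1% below in this way, and of those with 1 symbol 14.6% and 16.3%. The 7 were LPIN2, ACSL6, PLIN3, ACADM, HADHB, CD36 and FABP3, and the 8 were ACLY, ACSS2, ACACA, SCD, GPAM, DGAT1, ACSL4 and PPARG. After centring on array medians 3 members were above and 6 below, so that 33.3% of the members that stood apart were higher, against 46.7% as deposited, and after quantile normalization 6 were above and 8 below (42.9%). Of all probe sets 11.1% stood apart above and 14.7% below after centring, and 16% above and 16% below after quantile normalization. The members that stood apart under all 3 scalings were FABP3 and LPIN2 above, and ACLY, ACSS2, SCD, GPAM, ACSL4 and PPARG below. The share of all probe sets that did so under all 3 was not counted. This list therefore has no background to be read against.

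**Figure D2:**
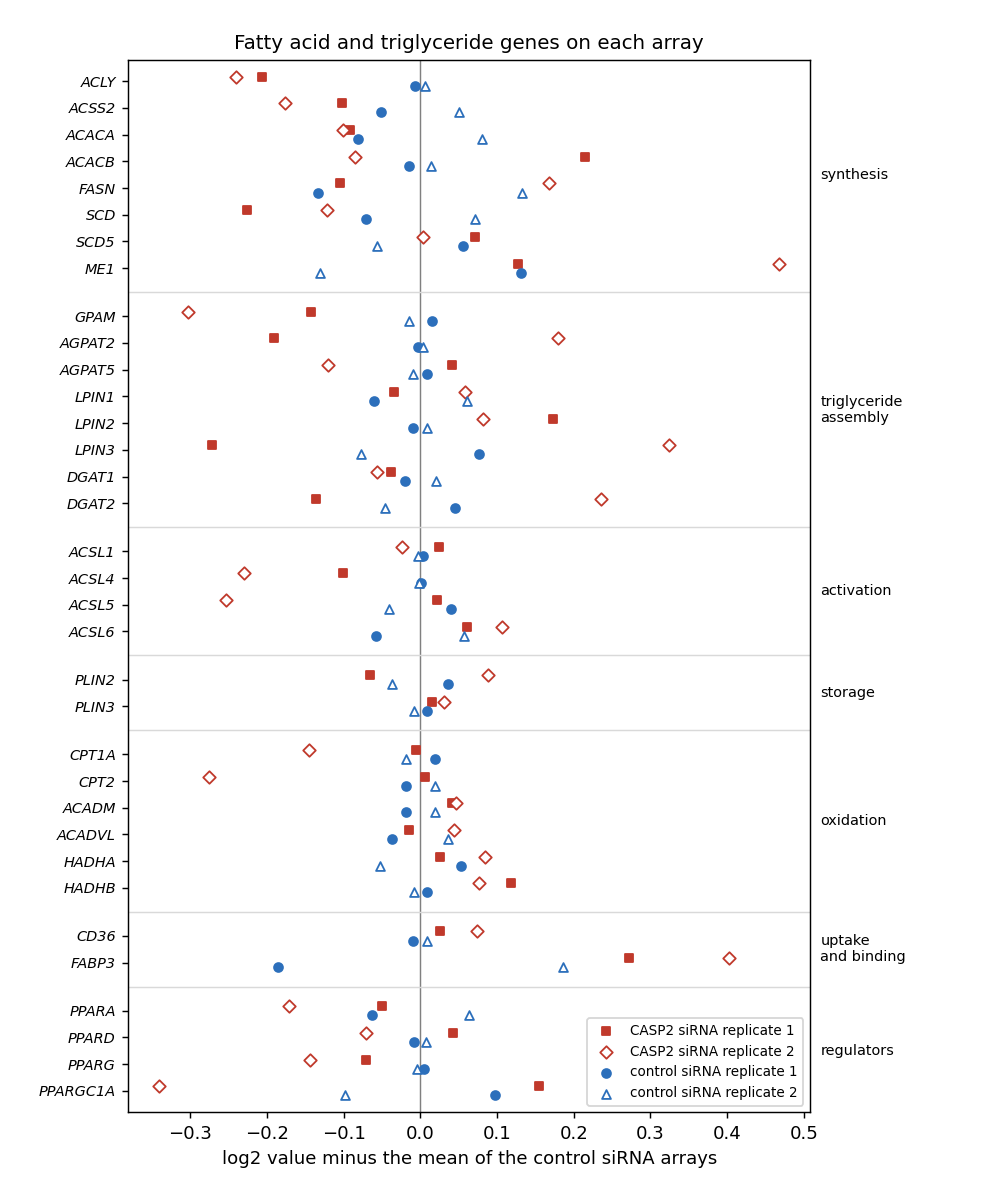
Log2 value of each member on each of the 4 arrays minus the mean of its control siRNA arrays (x axis), by role down the y axis, with CASP2 siRNA replicates as a filled square and an open diamond, and control siRNA replicates as a filled circle and an open triangle. The open diamonds, CASP2 siRNA replicate 2, hold the extreme values of LPIN3, ME1, GPAM, CPT2 and PPARGC1A, and both CASP2 siRNA symbols are left of both control symbols for 8 genes and right of them for 7.

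Of the 8 synthesis genes, 4 had both CASP2 siRNA arrays below both control arrays and none had both above, where 15.1% of all probe sets lay below and 14.5% above. These were ACLY and ACSS2, which make cytosolic acetyl-CoA out of citrate and acetate, ACACA, the carboxylase that makes malonyl-CoA in the cytosol, and SCD, the desaturase. ACACA no longer stood apart after median centring or quantile normalization. The other 4, ACACB, FASN, SCD5 and ME1, had differences above 0 with overlapping groups, except that ME1 stood apart above after median centring. The median difference of the 8 was -0.032, and none passed the test. That median was -0.0084 after quantile normalization, -0.14 without control siRNA replicate 1, -0.017 without control siRNA replicate 2, -0.093 without CASP2 siRNA replicate 1 and -0.097 without CASP2 siRNA replicate 2.

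ACLY gave 11.61 and 11.57 in silenced cells, against 11.81 and 11.82 in control cells. The arrays of each group lay close together and the groups were apart, by a difference of -0.22 (interval -0.46 to 0.015), a fold of 0.856. Its unadjusted limma p of 0.060 was the smallest of the 34 members, and over the alternatives it ran between 0.0034, when limma's prior followed the mean level and was robust, and 0.285, without control siRNA replicate 2. It was under 0.05 with that prior, after quantile normalization and with only probe sets of 1 symbol, and above 0.05 in the other alternatives. SCD gave 11.99 and 12.09 in silenced cells, against 12.14 and 12.29 in control cells. Here the replicate gaps, 0.10 in silenced and 0.14 in control cells, came close to the difference between groups of -0.17 (interval -0.46 to 0.11). ACSS2 gave 9.22 and 9.14 in silenced cells, against 9.27 and 9.37 in control cells, a difference of -0.14 (interval -0.40 to 0.12). For ACACA the values were 8.99 and 8.98 in silenced cells, against 9.0015 and 9.16 in control cells. Its groups nearly touched, control siRNA replicate 2 was the high array, and the difference of -0.096 (interval -0.37 to 0.18) was -0.015 without that array and -0.18 without control siRNA replicate 1.

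FASN, the synthase itself, gave 9.26 and 9.53 in silenced cells, against 9.23 and 9.50 in control cells. One array of each group was high and one low, with gaps of 0.27 in both groups, and the difference of 0.032 (interval -0.38 to 0.45) was small beside them. ACACB, the carboxylase at the mitochondrial surface, gave 7.36 and 7.06 in silenced cells, against 7.13 and 7.16 in control cells, a difference of 0.065 (interval -0.29 to 0.42). The CASP2 siRNA arrays lay on either side of the controls. SCD5, a second stearoyl-CoA desaturase, gave 7.72 and 7.65 in silenced cells, against 7.70 and 7.59 in control cells. Its difference was 0.038 (interval -0.23 to 0.30).

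ME1 had the highest difference of the synthesis genes. It gave 3.70 and 4.04 in silenced cells, against 3.71 and 3.44 in control cells, and 1 array of each group was level with the other. The difference of 0.30 (interval -0.15 to 0.75, unadjusted limma p 0.146) therefore came with overlapping groups, at a level below the lower quartile of the array. It was 0.47 without CASP2 siRNA replicate 1 and 0.13 without CASP2 siRNA replicate 2, and 0.43 without control siRNA replicate 1 and 0.17 without control siRNA replicate 2.

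Among the 4 activation genes, long-chain acyl-CoA synthetases that make acyl-CoA for either fate, 2 had differences above 0 and 2 below, with a median of -0.058, which turned to 0.023 without CASP2 siRNA replicate 2. ACSL4, which prefers arachidonate and related polyunsaturated fatty acids, gave 9.88 and 9.75 in silenced cells, against 9.99 and 9.98 in control cells. The control arrays were level and both CASP2 siRNA arrays lay below them, by a difference of -0.17 (interval -0.43 to 0.097). ACSL6, a synthetase known for its place in brain, gave 4.98 and 5.03 in silenced cells, against 4.87 and 4.98 in control cells, a difference of 0.084 (interval -0.18 to 0.34). Its groups nearly touched, and they overlapped after quantile normalization and after median centring. ACSL1 had a log2 difference of 5.3e-05 (10.18 and 10.14 in silenced cells, 10.16 and 10.16 in control cells, interval -0.24 to 0.24). ACSL5 had a difference of -0.12 (interval -0.46 to 0.23), and its second CASP2 siRNA array, at 6.99, was the low one.

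The triglyceride assembly genes follow the glycerol backbone: GPAM adds the first acyl chain, the AGPAT enzymes the second, the lipins remove the phosphate and the DGAT enzymes add the last chain. Of the 8 measured, 4 were above 0 and 4 below, with a median of 0.0034 that became -0.016 after median centring and -0.087 without CASP2 siRNA replicate 2. LPIN2 had both CASP2 siRNA arrays above, GPAM and DGAT1 both below, and the other 5 overlapped. None passed the test.

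GPAM, of the mitochondrial outer membrane, gave 8.05 and 7.89 in silenced cells, against 8.21 and 8.18 in control cells. Both CASP2 siRNA arrays were low, replicate 2 the lower, and the difference was -0.22 (interval -0.50 to 0.054, unadjusted limma p 0.091), a fold of 0.857. LPIN2 gave 9.49 and 9.40 in silenced cells, against 9.31 and 9.33 in control cells, a difference of 0.13 (interval -0.12 to 0.38). The 2 other lipins, also phosphatidate phosphatases, did not stand apart. LPIN1 gave 10.88 and 10.97 in silenced cells, against 10.85 and 10.97 in control cells. LPIN3 gave 5.44 and 6.04 in silenced cells, against 5.79 and 5.64 in control cells. Its CASP2 siRNA arrays lay 0.60 apart, the widest replicate gap among the members, with the controls between them, so that the interval of its difference of 0.026 ran between -0.57 and 0.62.

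None of the remaining enzymes passed the test. DGAT1, of the endoplasmic reticulum, gave 9.01 and 8.99 in silenced cells, against 9.03 and 9.07 in control cells, a difference of -0.048 (interval -0.29 to 0.19). The difference was larger than both replicate gaps, but the groups overlapped after either rescaling. DGAT2, the unrelated enzyme of the same reaction, gave 7.20 and 7.58 in silenced cells, against 7.39 and 7.29 in control cells. The controls lay between the CASP2 siRNA arrays, as they did for AGPAT2 (6.78 and 7.15 in silenced cells, 6.97 and 6.98 in control cells) and for AGPAT5 (10.17 and 10.01 in silenced cells, 10.14 and 10.12 in control cells).

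The storage genes were perilipins, which coat lipid droplets, and their median of 0.017 turned to -0.0024 after median centring and -0.025 without CASP2 siRNA replicate 2. PLIN3, the perilipin found throughout the body, gave 11.13 and 11.15 in silenced cells, against 11.13 and 11.11 in control cells. Its groups nearly touched, and its difference was 0.023 (interval -0.21 to 0.26), the narrowest interval of the members. PLIN2, the perilipin that is known to follow the amount of stored lipid, gave 4.79 and 4.94 in silenced cells, against 4.89 and 4.82 in control cells, with a difference of 0.011 (interval -0.27 to 0.29) that turned to -0.013 after quantile normalization and -0.0084 after median centring. It lay at the 31.7th percentile of control levels, and its RNA value does not measure the lipid stored. By filipin staining the paper found a lower percentage of U87MG cells with lipid droplets after caspase-2 silencing.

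In the oxidation genes 4 of 6 differences were above 0, the median was 0.029, which was 0.0097 after median centring, and every interval lay within 1.5 fold. CPT1A and CPT2 are the outer and inner carnitine palmitoyltransferases of the shuttle into mitochondria, and theirs were the 2 differences below 0. CPT1A gave 10.92 and 10.78 in silenced cells, against 10.95 and 10.91 in control cells, a difference of -0.075 (interval -0.34 to 0.19) that was -0.0055 without CASP2 siRNA replicate 2 and -0.15 without CASP2 siRNA replicate 1. CPT2 gave 7.79 and 7.51 in silenced cells, against 7.77 and 7.81 in control cells. Only CASP2 siRNA replicate 2 was low for CPT2, whose difference of -0.13 (interval -0.48 to 0.21) became 0.0061 without that array.

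The 4 genes of the oxidation spiral itself had differences above 0, of which that of ACADVL turned to -0.0054 after median centring. ACADM, the medium-chain acyl-CoA dehydrogenase, gave 10.18 and 10.19 in silenced cells, against 10.12 and 10.16 in control cells, and ACADVL, for very long chains, 9.87 and 9.93 in silenced cells, against 9.85 and 9.92 in control cells. HADHB, the beta subunit of the mitochondrial trifunctional protein, gave 9.77 and 9.73 in silenced cells, against 9.67 and 9.65 in control cells. Its groups were apart, by a difference of 0.097 (interval -0.14 to 0.34). HADHA, the alpha subunit, gave 10.93 and 10.99 in silenced cells, against 10.96 and 10.85 in control cells, so its groups overlapped and the difference was 0.055 (interval -0.20 to 0.31). The starts of these 2 genes lie head to head, at 26244632 for HADHA and 26244939 for HADHB on chromosome 2, and their windows share 194 bases of the HADHB sequence printed above.

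FABP3, a cytosolic fatty acid binding protein best known in heart muscle, had the highest difference of all 34 members. FABP3 gave 7.78 and 7.91 in silenced cells, against 7.32 and 7.69 in control cells. Both CASP2 siRNA arrays were high, but the control arrays lay 0.37 apart, a wider gap than the difference between the groups. The difference was 0.34 (interval -0.086 to 0.76, unadjusted limma p 0.094), 26.4% higher in silenced cells, and it was 0.15 without control siRNA replicate 1 and 0.52 without control siRNA replicate 2. The unadjusted limma p was 0.458 in the first of these fits and 0.046 in the second. CD36, which carries fatty acids across the plasma membrane, gave 3.41 and 3.45 in silenced cells, against 3.37 and 3.39 in control cells, a difference of 0.050 (interval -0.19 to 0.29) below the lower quartile of the array.

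The 4 regulators all had differences below 0, with a median of -0.10 that shrank to -0.0034 without CASP2 siRNA replicate 2, and PPARD turned to 0.016 after quantile normalization. PPARA, the nuclear receptor known for driving oxidation genes in liver, gave 7.99 and 7.87 in silenced cells, against 7.97 and 8.10 in control cells, with a difference of -0.11 (interval -0.39 to 0.17) and overlapping groups. PPARG, the receptor of adipocyte differentiation, gave 9.41 and 9.34 in silenced cells, against 9.48 and 9.48 in control cells. It was the 1 regulator whose groups stood apart, by a difference of -0.11 (interval -0.35 to 0.14), and the 1 regulator above the upper quartile in control cells. PPARD, a broadly expressed receptor, gave 8.49 and 8.37 in silenced cells, against 8.44 and 8.45 in control cells. PPARGC1A, a coactivator of these receptors that promotes mitochondrial biogenesis, gave 6.66 and 6.17 in silenced cells, against 6.61 and 6.41 in control cells. The gap of 0.49 between its CASP2 siRNA arrays was the second widest of the members and held both controls, and the interval of its difference of -0.093 ran between -0.62 and 0.44.

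**Figure D3:**
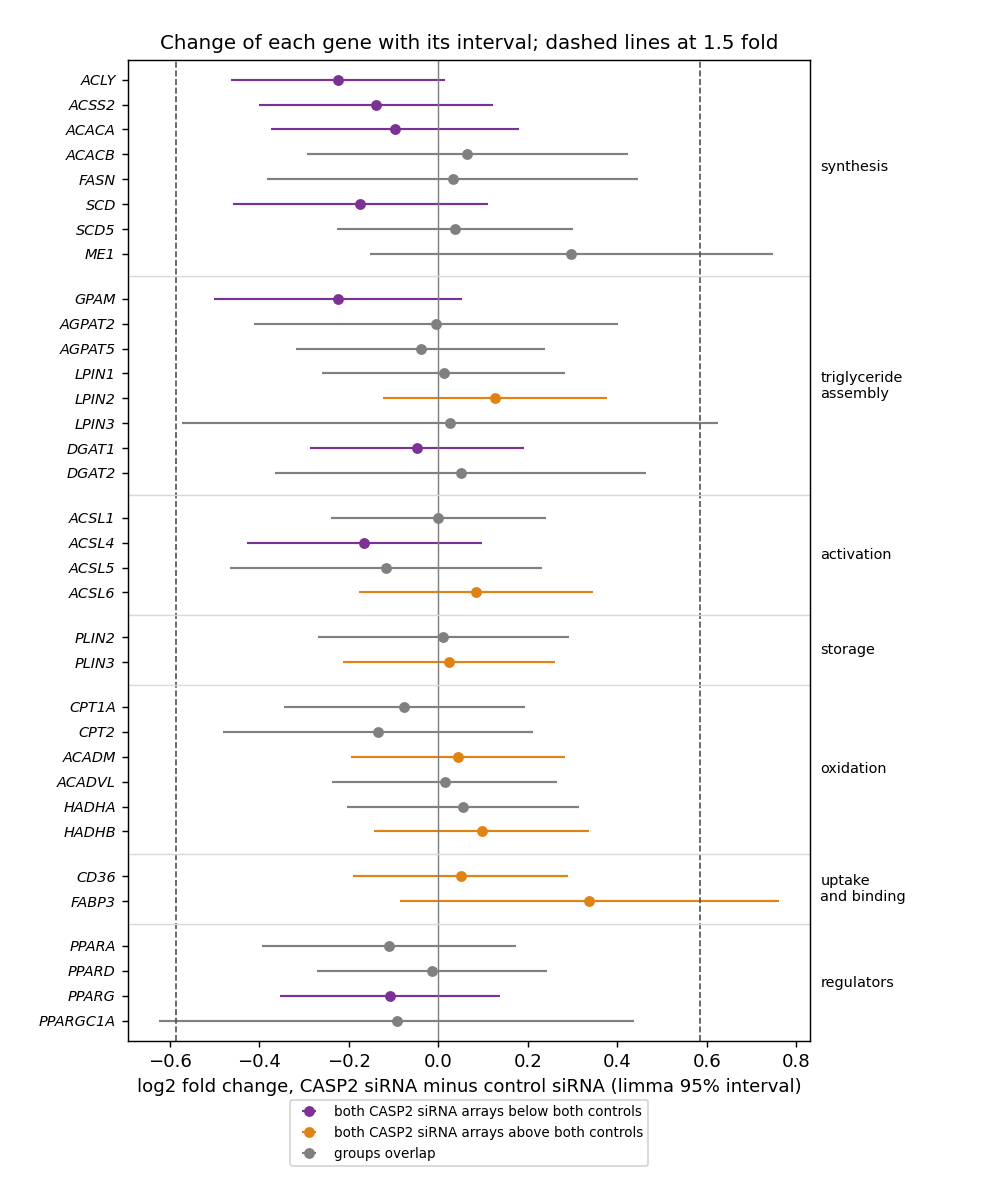
Log2 difference of each member, CASP2 siRNA minus control siRNA (x axis, 2 arrays a group), with its 95% limma interval as a line, by role down the y axis, coloured by whether both CASP2 siRNA arrays lay below or above both controls or the groups overlapped, and with dashed lines at 1.5 fold. All 34 lines cross 0, and 30 stay between the dashed lines, the others being ME1, LPIN3, FABP3 and PPARGC1A.

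The spread between replicates was wider in silenced cells for 21 of the 34 members. That share was below the 73.3% of all probe sets with 1 symbol. The median gap between the CASP2 siRNA arrays was 0.11 and that between the control siRNA arrays 0.057. Over all probe sets with 1 symbol these medians were 0.168 and 0.073. By role the CASP2 siRNA gap was largest in triglyceride assembly, with a median of 0.16, against 0.035 in the controls. That 0.16 was close to the median over all probe sets with 1 symbol. In the synthesis genes the CASP2 siRNA gap was 0.089, against 0.13 in the controls. Leaving out CASP2 siRNA replicate 2 turned the sign of 11 members, and leaving out replicate 1 that of 3. How far the state of that array bears on the differences was not tested.

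Other genes of the pathway, listed by function, were counted in the same fit, and none passed the thresholds of the study. Of the other suppliers of acetyl-CoA, malonyl-CoA and NADPH, 12 of 15 listed genes were measured, 6 above 0 and 6 below, with a median of -0.0072, and the groups stood apart for none above and 3 below. Such counts stand beside the 14.5% above and 15.1% below of all probe sets. Of the other triglyceride assembly and droplet genes 22 of 24 were measured, 16 above 0 and 6 below, with a median of 0.087, and 6 stood apart above and 1 below. Without CASP2 siRNA replicate 2 the median of these assembly and droplet genes was 0.013 and that of the oxidation genes that follow 0.0013. The other mitochondrial and peroxisomal oxidation genes, 23 of 26 measured, had 6 above 0 and 17 below, a median of -0.046, and 1 apart above and 7 below. The other uptake, binding and activation genes (24 of 25) were 14 above and 10 below 0 with a median of 0.014, which turned to -0.0047 after quantile normalization and -0.0060 after median centring, and 3 stood apart above and 3 below. The other lipid regulators (24 of 25 genes by 26 probe sets) were 13 above and 13 below with a median of -0.0054, which turned to 0.017 after quantile normalization, and 5 stood apart above and 6 below. These counts carry no test of their own. Marker lists of other cell types also lay mostly above 0. These were 6 of 7 hepatocyte (median 0.065), 6 of 8 immune and microglial (0.075), 6 of 6 endothelial (0.047) and 7 of 8 neuronal probe sets (0.044). Of the astroglial and glioma markers 5 of 9 were above 0. The median of all values was 6.28 on CASP2 siRNA replicate 2, 6.18 on replicate 1 and 6.21 on each control array. How far this bears on the counts was not tested.

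HILPDA, a droplet protein induced by hypoxia that inhibits triglyceride lipase, was the 1 gene of these lists whose interval excluded 0. It gave 9.31 and 9.24 in silenced cells, against 8.97 and 8.93 in control cells. Both CASP2 siRNA arrays were high and the replicates were close, and the difference was 0.32 (interval 0.078 to 0.57), 25.2% higher in silenced cells, with an unadjusted limma p of 0.021 and an adjusted p of 0.9999. The unadjusted limma p was above 0.05 after median centring (0.056) and without control siRNA replicate 1 (0.123) or 2 (0.163), and the methods' t-test did not reach 0.05 either. SREBF1, named here for its role as the SREBP gene of fatty acid synthesis, gave 8.15 and 8.34 in silenced cells, against 8.15 and 8.20 in control cells, a difference of 0.069 (interval -0.22 to 0.36). Its CASP2 siRNA arrays lay below and above both controls, and the difference was -0.025 without CASP2 siRNA replicate 2.

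**Figure D4:**
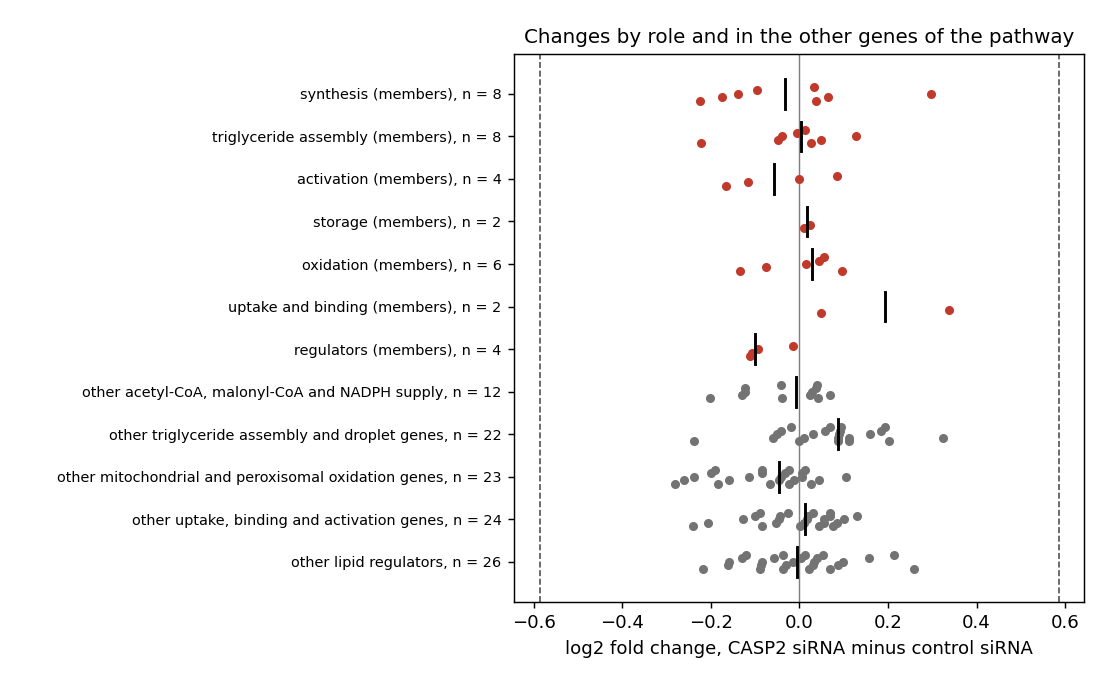
Log2 difference, CASP2 siRNA minus control siRNA (x axis, 2 arrays a group), of each probe set as a dot and the median as a bar, for the 7 roles of the members (red) and the 5 lists of other pathway genes (grey) down the y axis, with n the number of probe sets and dashed lines at 1.5 fold. No dot reaches a dashed line, and the medians lie between -0.10 (regulators) and 0.19 (uptake and binding, n = 2, and 0.096 to 0.29 with an array left out).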

How the data were processed

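Total RNA of U87MG cells was hybridized to 4 Affymetrix arrays, 2 after CASP2 siRNA and 2 after control siRNA, grouped by their labels. The authors normalized them with RMA (Robust Multi-Array Average), whose version was not given in the sources used here. The deposited table holds log2 values, 1 per probe set and array. Because RMA gives every array the same spread of probe values, a shift of all transcripts together is largely removed, and folds near background are compressed. No column was left unmapped. Genes were named from the platform annotation, in which 19158 probe sets have 1 symbol, 1388 several and 11775 none. Of the 19158, 19128 had a gene ID found in RefSeq (GRCh38.p14) and took the symbol given there, whether or not it differed. Promoter windows are also from RefSeq, and the table used gave none for 6 of the 38 genes.

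All 32321 probe sets were fitted with limma 3.58.1 (lmFit, eBayes) in R 4.3.3, CASP2 siRNA minus control siRNA, with two-sided p-values adjusted over the whole table (Benjamini-Hochberg). There were 2 residual and 2.47 prior degrees of freedom. Intervals are 95% limma intervals. The number of arrays limits the precision. The fit was also run on simulated data with the same spread in both groups. The arrays here did not have equal spread, so that run cannot show how the fit behaves with it. Array values were named in full for the largest increase and decrease of each role, members past a threshold or with an interval excluding 0, and the 3 widest replicate gaps. The remaining members' values were added for description. Alternatives were the methods' t-test with a minimum standard deviation, trend and robust eBayes, quantile normalization, median centring, leaving out dim probe sets, only probe sets with 1 symbol, folds of linear means, the replicate number as a block, and each array left out. The members, lists and alternatives were chosen with earlier results of these data known.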

Additional observations from a re-analysis of the deposited data

How the results depend on the processing

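No member passed the study thresholds or an adjusted p of 0.05 under any alternative run. Members at an unadjusted p under 0.05 numbered 0 in the fit reported, 2 with trend and robust eBayes (ACLY and SCD), 1 after quantile normalization (ACLY), 1 with only probe sets of 1 symbol (ACLY), and 0 to 4 with an array left out. Those 4, ME1, GPAM, LPIN3 and CPT2, came without CASP2 siRNA replicate 1, which leaves that group with 1 array assumed to vary like the controls. Over all probe sets the 107 higher and 117 lower calls became 35 and 37 by the methods' t-test, 20 and 27 among probe sets with 1 symbol, where fewer were tested, and 118 to 414 higher and 157 to 592 lower with an array left out. The smaller number tested does not alone account for the drop to 20 and 27. Probe sets with 1 symbol were 19158 of the 32321. In the fit reported they held 19 of the 107 higher and 26 of the 117 lower calls. Most calls therefore lay on probe sets with no symbol or several. The replicate numbers pair nothing that the labels describe (correlation of same-numbered deviations 0.020). With the replicate block 142 were higher and 160 lower, 0 members were called, and no call on a member changed. Member intervals within 1.5 fold numbered 30 as reported and 12 to 32 with an array left out. Median centring left 3 members apart above, and gave medians of -0.014 over all members and 0.0097 for oxidation. With an array left out the medians ran between -0.015 and 0.00032 (all members), -0.14 and -0.017 (synthesis), -0.087 and 0.070 (triglyceride assembly), -0.13 and 0.023 (activation), -0.025 and 0.060 (storage), 0.0015 and 0.045 (oxidation), 0.096 and 0.29 (uptake and binding), and -0.16 and -0.0034 (regulators). After quantile normalization the synthesis median was -0.0084.

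Signs turned for small differences: after quantile normalization AGPAT2 (0.0088), PLIN2 (-0.013) and PPARD (0.016), after median centring LPIN1 (-0.0078), ACSL1 (-0.020), PLIN2 (-0.0084) and ACADVL (-0.0054), and with linear means AGPAT2 (0.0067). With an array left out the difference ran between -0.085 and 0.22 for ACACB, -0.10 and 0.17 for FASN, -0.018 and 0.094 for SCD5, -0.19 and 0.18 for AGPAT2, -0.12 and 0.041 for AGPAT5, -0.049 and 0.072 for LPIN1, -0.27 and 0.32 for LPIN3, -0.14 and 0.24 for DGAT2, -0.024 and 0.024 for ACSL1, -0.25 and 0.022 for ACSL5, -0.066 and 0.088 for PLIN2, -0.28 and 0.0061 for CPT2, -0.022 and 0.051 for ACADVL, -0.071 and 0.043 for PPARD, -0.34 and 0.15 for PPARGC1A, and -0.025 and 0.16 for SREBF1. Without turning sign it ran between 0.15 and 0.52 for FABP3, 0.13 and 0.47 for ME1, -0.18 and -0.015 for ACACA, -0.15 and -0.0055 for CPT1A, -0.24 and -0.21 for ACLY, -0.24 and -0.10 for SCD, -0.30 and -0.14 for GPAM, 0.0021 and 0.11 for HADHA, and 0.027 and 0.14 for ACSL6. The cause was not tested. Leaving out dim probe sets removed ME1 and CD36, the 32 others keeping their sign. Probe sets near background, such as these, have compressed folds.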
